A study of Mus musculus with 31 samples.

Results

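The patatin-like lipases and the proteins that switch them on and off were followed across the 4 genotype groups of mouse liver arrays. The members were the 6 patatin-like phospholipase domain genes Pnpla2, Pnpla3, Pnpla5, Pnpla6, Pnpla7 and Pnpla8 together with the cofactor genes Abhd5 and G0s2, and they were taken as all probes carrying these gene names. They gave 13 probes for 8 genes, of 36059 probes and 23968 gene names tested. All 13 probes were in the deposited table, 10 of them detected on at least 26 arrays, whereas the second probe of Pnpla3 (A_55_P2025514), the second probe of Pnpla5 (A_51_P334804) and 1 of 3 Abhd5 probes (A_52_P273821) were kept because at least 6 arrays of 1 group detected them.

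Liver RNA came from 31 male C57BL6/J mice, 1 array per mouse, and no mice were pooled. ChREBP is the glucose-responsive transcription factor encoded by Mlxipl, which makes a full-length α isoform and a shorter β isoform from another first exon. The groups were 8 ChREBPβ-deficient mice (labeled ChREBPbeta_KO), in which CRISPR/Cas9 editing of zygotes removed exon 1b, 8 WT littermates of that line (ChREBPbeta_WT), 7 total ChREBP-KO mice (ChREBPtotal_KO), which lack both isoforms, and 8 WT littermates of that line (ChREBPtotal_WT). Every mouse, control or knockout, was fasted for 24 hours and then refed for 18 hours with its diet and 20% glucose in the drinking water. Neither knockout is restricted to the liver, the age of the mice is not given in the sources used here, and replicate 3 of the total ChREBP-KO mice was not analysed here.

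Patatin-like lipases cut fatty acids from lipids. PNPLA2, also called ATGL, starts the breakdown of triglyceride in lipid droplets, is activated by ABHD5 (CGI-58) and is blocked by G0S2, whereas PNPLA3 sits on droplets of the fed liver and binds the same activator, and PNPLA5 is a close relative of PNPLA3. PNPLA6 and PNPLA7 act on lysophospholipids at the endoplasmic reticulum, and PNPLA8 is a calcium-independent phospholipase of mitochondria and peroxisomes.

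The labels were checked first. Mlxipl probe A_55_P2119957 was lower in total ChREBP-KO mice by a log2 difference of -1.16 (limma adjusted p = 8.05e-13) and, less so, in mice lacking ChREBPβ, with a log2 difference of -0.45 (limma adjusted p = 0.0152). A second probe, A_55_P2728555, read -0.59 for the total ChREBP knockout (limma adjusted p = 0.00313) and -0.46 for mice lacking ChREBPβ (limma adjusted p = 0.909), and these effects did not pass a test of their difference (limma adjusted p = 0.729). The third, A_55_P2045158, was called in neither line, and the position of the probes against the deletions was not determined. The hepatocyte markers Alb, Apoa1, Ttr, Tat and Cyp2e1 were well above background on every array. Correlations between arrays ranged from 0.980 to 0.999. The summed signal of non-liver marker lists stood over 1.5 log2 units above the median of all arrays on 5 arrays, namely ChREBPtotal_WT replicates 2, 7 and 8 for 10 exocrine pancreas genes, ChREBPbeta_KO replicate 6 for 7 adipocyte genes, and ChREBPtotal_KO replicate 6 for these adipocyte genes and 4 skeletal muscle genes. Not every gene of the adipocyte list was raised. In the ChREBPbeta_KO group the highest values of Cfd and Cidea were 12.60 and 12.09, and those of Adipoq, Retn and Plin1 were 5.02, 5.73 and 5.53. In the ChREBPtotal_KO group Adipoq and Retn reached 8.87 and 8.98. Because of the raised sums, the 13 member probes were also compared without these 5 arrays, a choice made after the data were seen.

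Loss of both ChREBP isoforms lowered mRNA levels of 3 of the 8 genes, Pnpla3, Pnpla5 and Pnpla7, and none was called higher. In whole liver, fewer cells of a type and less RNA per cell cannot be told apart. Across all genes tested, 17.1% were called lower and 17.3% were called higher in the same comparison. These calls came from 5 of the 13 probes, and 2 of the 5, the second probes of Pnpla3 and Pnpla5, had entered the test through groups in which they are high and are given as a description only. The median log2 difference of the 13 probes was -0.21, against 0.01 over all probes. For 6 probes the 7 total ChREBP-KO mice and their 8 WT littermates did not overlap. In 5 of them every knockout mouse lay below every WT littermate, which held for 4.14% of all probes, and in 1 of them, that of Pnpla2, every knockout mouse lay above, which held for 3.26%.

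**Figure D1:**
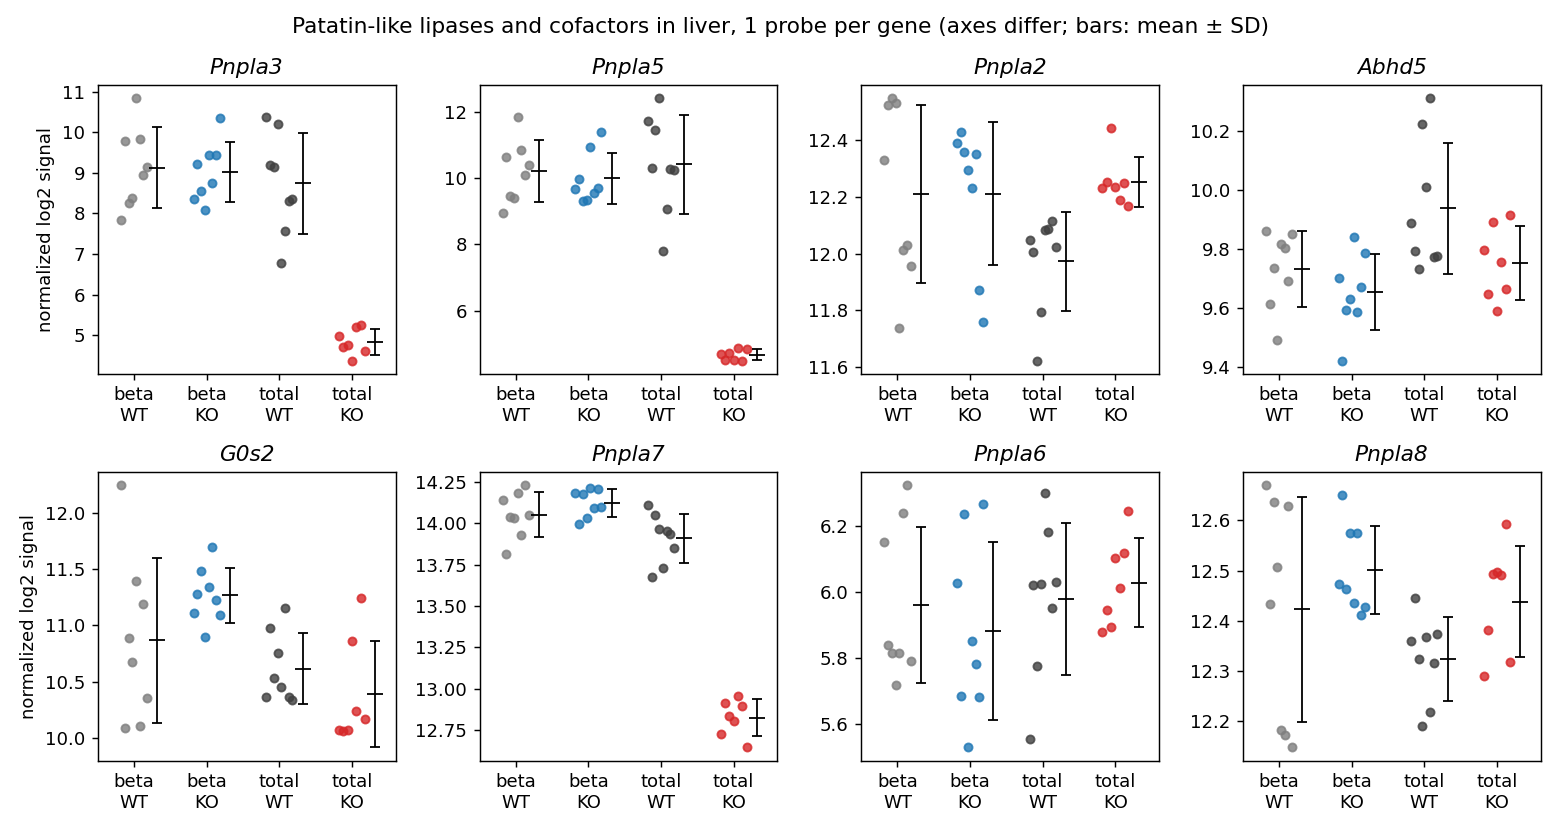
Normalized log2 signal of each mouse (points) for 1 probe per gene, the one with the highest mean signal, in the 4 genotype groups (8 mice each, 7 for total KO), with the mean and SD of each group as bars. The total KO mice sit below all other mice for Pnpla3, Pnpla5 and Pnpla7, whereas the 4 groups overlap for Abhd5, G0s2, Pnpla6 and Pnpla8; vertical axes differ between genes.

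Pnpla5 decreased in total ChREBP-KO mice. Probe A_66_P122294 read from 4.49 to 4.88 in total ChREBP-KO mice (median 4.70) and from 7.81 to 12.42 in their WT littermates (median 10.28) on the log2 scale. The lowest WT littermate was thus far above the highest knockout mouse, and the WT littermates spread widely among themselves. Mean levels were 4.67 ± 0.16 (SD, n = 7) and 10.41 ± 1.49 (SD, n = 8), a log2 difference of -5.74 with a standard error of 0.48 (limma adjusted p = 1.97e-10), and its 95% confidence interval ran from -6.72 to -4.77. Only 3 of 7 knockout arrays had this spot well above background, against 8 of 8 WT arrays, so the size of the decrease rests partly on values near background. It was -7.75 with the background-subtracted processed signal and -4.48 after normexp correction with an offset of 50. The second probe, A_51_P334804, was well above background in all 7 knockout mice, at 5.61 to 5.86, and read from 6.23 to 9.83 in WT littermates. Its log2 difference was -2.43, smaller than that of the first probe. Because this probe was kept through groups in which it is high, its values add no support to the decrease.

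Pnpla3 followed the same pattern. Probe A_51_P389265 ranged from 4.37 to 5.25 in total ChREBP-KO mice (median 4.75) and from 6.77 to 10.37 in WT littermates (median 8.75). Again no knockout mouse reached the lowest WT littermate. The mean levels of 4.84 ± 0.32 (SD, n = 7) and 8.74 ± 1.24 (SD, n = 8) differed by -3.90 with a standard error of 0.44 (limma adjusted p = 5.10e-08). This is a 14.9-fold decrease, and the 95% confidence interval on the log2 scale ran from -4.80 to -3.00. The spot was well above background on 4 of 7 knockout arrays, and the log2 difference was -5.71 with the processed signal and -2.83 after normexp correction. Probe A_55_P2025514 read from 4.64 to 5.25 in knockout mice, 4 of 7 of them well above background, and from 5.88 to 8.36 in WT littermates. That probe differed by -2.15, and it too was kept through groups in which it is high, so its values are a description.

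The decreases of Pnpla3 and Pnpla5 were present on both scan days but differed in size. On the first day, with 4 mice per group, the log2 differences of the leading probes were -5.02 for Pnpla3 and -6.86 for Pnpla5. On the second day, with 3 knockout mice and 4 WT littermates, they were -2.73 and -4.60. The mean of Pnpla3 in the WT littermates was 9.73 on the first day and 7.75 on the second, whereas that in knockout mice was 4.70 and 5.02. The part of the scan day in this spread was not tested.

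Pnpla7, which encodes a lysophospholipase that makes glycerophosphocholine, changed less but with little scatter. Probe A_51_P276235 ranged from 12.64 to 12.95 in total ChREBP-KO mice (median 12.84) and from 13.68 to 14.11 in WT littermates (median 13.95). The groups were separated, and the mice of each group lay close together. Mean levels were 12.83 ± 0.11 (SD, n = 7) and 13.91 ± 0.15 (SD, n = 8), a log2 difference of -1.09 with a standard error of 0.07 (limma adjusted p = 2.31e-13). This is a 2.12-fold decrease, and the 95% confidence interval on the log2 scale ran from -1.22 to -0.95. Within scan days the log2 differences were -1.13 and -1.04. Over the alternative treatments of signal, filter and batch the value stayed between -1.15 and -1.03, and it was -1.16 without the 5 arrays with raised marker sums.

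On the genome, Pnpla3 and Pnpla5 are neighbours. RefSeq (GRCm38.p6) places Pnpla5 at 84112621 to 84123175 and Pnpla3 at 84167776 to 84189521 of chromosome 15, on opposite strands and 44.6 kb apart, and Pnpla7 at 24975990 to 25054072 of chromosome 2. In the array annotation (mouse build mm9) the Pnpla3 probes lie on chromosome 15 at 84019823 to 84019882 and 84016440 to 84016499, the Pnpla5 probes at 83942786 to 83942844 and 83943118 to 83943177, and the Pnpla7 probe on chromosome 2 at 24908961 to 24909192. The exons under the probes were not assigned here.

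The promoters of the 3 genes that fell and of Pnpla2, which did not pass the test, are shown because ChREBP binds DNA through E-box motifs. Each is the RefSeq window from 250 bases before the transcription start to 30 bases after it, 5′ to 3′ on the strand of the gene, with CACGTG, the E-box, in capitals. The coordinates in GRCm38.p6 are chr15:84167566-84167845 (plus strand) for Pnpla3, chr15:84123146-84123425 (minus strand) for Pnpla5, chr2:24975783-24976062 (plus strand) for Pnpla7 and chr7:141454938-141455217 (plus strand) for Pnpla2.
Pnpla3: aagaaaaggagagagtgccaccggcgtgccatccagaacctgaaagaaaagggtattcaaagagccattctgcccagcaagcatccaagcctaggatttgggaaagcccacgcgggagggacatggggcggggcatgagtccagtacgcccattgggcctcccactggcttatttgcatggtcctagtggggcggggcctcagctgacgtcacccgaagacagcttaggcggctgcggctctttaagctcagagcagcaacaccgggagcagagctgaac
Pnpla5: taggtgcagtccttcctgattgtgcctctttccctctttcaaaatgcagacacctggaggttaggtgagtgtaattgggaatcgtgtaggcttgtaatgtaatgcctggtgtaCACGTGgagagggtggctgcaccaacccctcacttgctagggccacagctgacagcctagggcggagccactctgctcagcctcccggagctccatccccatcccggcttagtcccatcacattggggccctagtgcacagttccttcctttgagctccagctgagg
Pnpla7: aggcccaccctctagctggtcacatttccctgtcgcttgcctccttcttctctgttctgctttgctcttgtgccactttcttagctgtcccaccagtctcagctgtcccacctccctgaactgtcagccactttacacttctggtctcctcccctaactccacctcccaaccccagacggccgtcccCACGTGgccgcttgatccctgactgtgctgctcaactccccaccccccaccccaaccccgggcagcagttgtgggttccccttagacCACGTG
Pnpla2: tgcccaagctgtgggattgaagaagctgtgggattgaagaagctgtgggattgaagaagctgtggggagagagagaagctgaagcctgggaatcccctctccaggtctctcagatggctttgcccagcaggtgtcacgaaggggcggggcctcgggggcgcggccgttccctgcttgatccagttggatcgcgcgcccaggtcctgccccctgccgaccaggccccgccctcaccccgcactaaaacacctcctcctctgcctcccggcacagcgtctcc

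Pnpla5 holds 1 E-box, at position -137 counted from the transcription start. Pnpla7 holds 2, at positions -63 and 25. Neither Pnpla3 nor Pnpla2 holds one in this window, nor do Abhd5, G0s2, Pnpla8 and the 3 windows of Pnpla6. The E-box, which reads the same on both strands, is present in 7.15% of the 32851 RefSeq promoter windows of 250 bases before to 50 bases after a start. On both strands no member window held the carbohydrate response element (ChoRE, 2 E-box-like sites at a fixed spacing, 0.119% of all windows), TCACNCCAC of the sterol response element (1.24%), the PPAR response element (0.0396%) or the palindromic glucocorticoid response element (0.475%). A match or its absence in such a short window is a description of letters only.

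Pnpla2, the triglyceride lipase, did not pass the test, although its groups did not overlap. Probe A_55_P1961039 (mm9 chromosome 7, 148645928 to 148645987) read from 12.17 to 12.44 in total ChREBP-KO mice (median 12.24) and from 11.62 to 12.12 in WT littermates (median 12.04). Every knockout mouse was above every WT littermate, but by a small margin. The means of 12.25 ± 0.09 (SD, n = 7) and 11.97 ± 0.17 (SD, n = 8) gave a log2 difference of 0.28 with a standard error of 0.11 (95% confidence interval 0.05 to 0.51), and the limma adjusted p was 0.0625. The spread entering this test includes the ChREBPβ line, in which Pnpla2 ranged from 11.74 to 12.55 and thus over the values of both total ChREBP groups. When the comparison was fitted on its own 2 groups, the limma adjusted p was 0.00987, and an exact Mann-Whitney test gave an adjusted p of 0.00419. The log2 difference was 0.42 on the first scan day and 0.13 on the second, and 0.34 (limma adjusted p = 0.0896) without the 5 arrays with raised marker sums. It also passed the test without ChREBPbeta_KO replicate 8 or ChREBPbeta_WT replicate 5 (adjusted p = 0.0458 and 0.0432).

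The cofactors gave no called change in total ChREBP-KO mice. Abhd5, the activator of PNPLA2, read from 9.59 to 9.92 in knockout mice (median 9.76) and from 9.73 to 10.31 in WT littermates (median 9.84) for its brightest probe, A_55_P2177233. The groups overlapped. The 3 Abhd5 probes gave log2 differences of -0.19, -0.21 and -0.21 (limma adjusted p = 0.0848, 0.156 and 0.192). Without the 5 arrays with raised marker sums, A_55_P2177233 passed the test at -0.28 (limma adjusted p = 0.0317), whereas the other Abhd5 probes did not. G0s2, the inhibitor, read from 10.06 to 11.24 in knockout mice (median 10.17) and from 10.34 to 11.16 in WT littermates (median 10.49). The lowest 5 knockout mice lay below every WT littermate, 1 lay within the WT range and 1 above it. G0s2 thus differed by -0.23 on the log2 scale (95% confidence interval -0.71 to 0.25), and the limma adjusted p was 0.510.

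The other members differed little. Pnpla6 was between 5.88 and 6.25 in total ChREBP-KO mice and between 5.55 and 6.30 in WT littermates, a log2 difference of 0.05 (95% confidence interval -0.18 to 0.28, limma adjusted p = 0.793). Its spot was well above background on all these arrays but dim. Median intensities were 57.5 to 85.5 in knockout mice and 47 to 69.5 in WT littermates, over local backgrounds of 16 to 34 and 16 to 20. As no background was subtracted, this small difference rests on low signal. The 2 Pnpla8 probes gave 0.11 (limma adjusted p = 0.262) and 0.15 (limma adjusted p = 0.0538). The latter, A_55_P2622076, read from 9.36 to 9.76 in knockout mice and from 9.18 to 9.55 in WT littermates, with overlap. It passed the test with the authors' deposited values (adjusted p = 0.0454), after normexp correction (adjusted p = 0.0433), with a filter requiring all arrays (adjusted p = 0.0356) and with slide as a random block (adjusted p = 0.0456). It also passed without ChREBPbeta_WT replicate 1, ChREBPtotal_KO replicate 2 or 4, or ChREBPtotal_WT replicate 2 or 6, with adjusted p from 0.0231 to 0.0486.

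**Figure D2:**
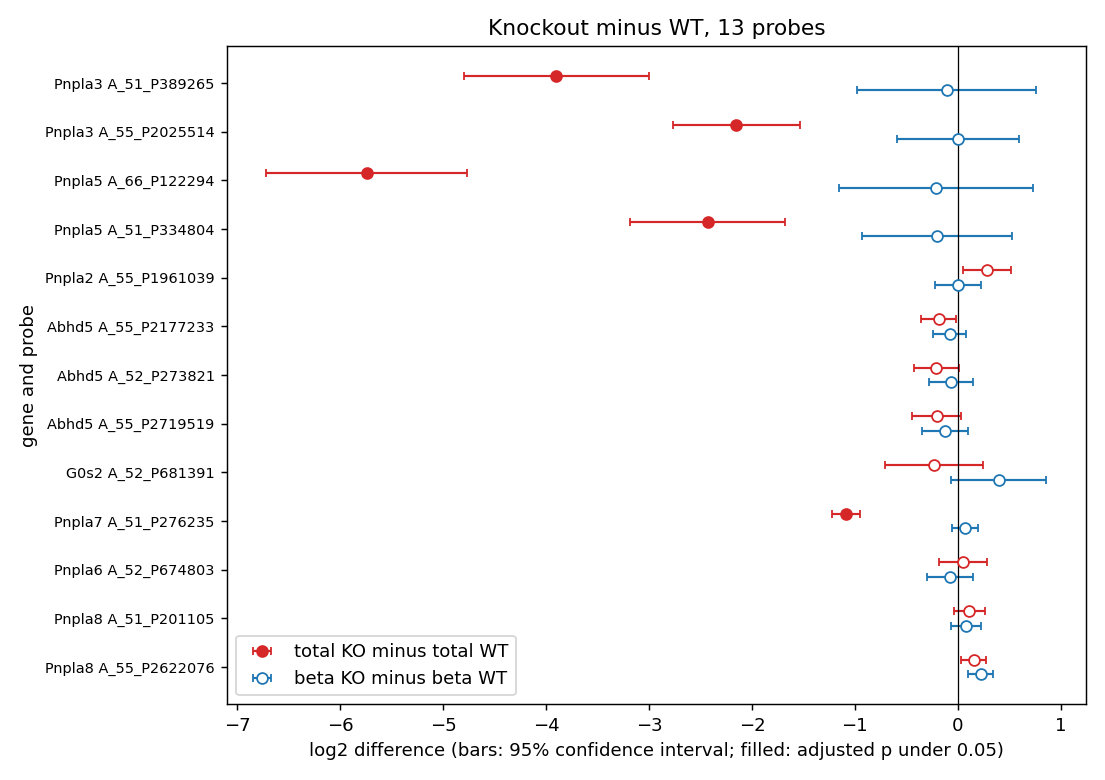
Log2 difference of knockout minus WT littermates for each of the 13 probes, with its 95% confidence interval, in the total ChREBP line (red) and the ChREBPβ line (blue); filled points passed an adjusted p of 0.05. The 5 filled points, all red, belong to Pnpla3, Pnpla5 and Pnpla7, and every blue interval but that of Pnpla8 probe A_55_P2622076 crosses 0.

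In ChREBPβ-deficient mice none of the 8 genes was called against WT littermates, and 1 of the 13 probes had an unadjusted p under 0.05, as did 1796 of all 36059 probes. The exact Mann-Whitney test also called none after adjustment. Over all genes tested 0.00417% were called, which is 1 gene, the edited gene Mlxipl itself. No member probe separated the groups, which 0.0222% of all probes did. Pnpla3 read from 8.09 to 10.35 in ChREBPβ-deficient mice (median 8.98) and from 7.83 to 10.84 in their WT littermates (median 9.04). The groups covered the same range. The log2 difference was -0.11 with a 95% confidence interval of -0.98 to 0.76. Pnpla5 ranged from 9.31 to 11.39 (median 9.70) and from 8.94 to 11.84 (median 10.25), a log2 difference of -0.21 (95% confidence interval -1.15 to 0.73). These intervals are wide and do not exclude a change of over 1.5-fold in either direction. For Pnpla7 the interval was narrow. It ranged from 14.00 to 14.22 and from 13.82 to 14.23, and the log2 difference was 0.07 (95% confidence interval -0.06 to 0.20).

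Pnpla2 had the same mean level in ChREBPβ-deficient mice and WT littermates, 12.21 ± 0.25 and 12.21 ± 0.31 (SD, n = 8 each), with a 95% confidence interval of -0.22 to 0.23 for the log2 difference. G0s2 read from 10.90 to 11.70 in ChREBPβ-deficient mice (median 11.25) and from 10.09 to 12.25 in WT littermates (median 10.78). All ChREBPβ-deficient mice fell inside the WT range. The log2 difference of 0.40 (95% confidence interval -0.07 to 0.86, limma adjusted p = 0.998) did not pass the test. The highest G0s2 value of the deficient mice was that of replicate 6, the array with a raised sum of adipocyte markers. Without the 5 arrays with raised marker sums the difference was 0.34. The summed signal of the 7 adipocyte markers ranged from 11.20 to 13.61 in ChREBPβ-deficient mice and from 10.78 to 11.92 in WT littermates. On these arrays 6 or 7 of the 7 were well above background. Cfd read from 8.42 to 12.60 in deficient mice and from 6.44 to 10.42 in WT littermates. The corresponding ranges of Cidea were 6.33 to 12.09 and 5.74 to 9.76. Mean levels of Retn (5.56 against 5.45) and Fabp4 (10.48 against 10.47) hardly differed. Those of Adipoq (4.62 against 4.84), Lep (8.13 against 8.26) and Plin1 were lower in deficient mice. The part of the summed signal in the G0s2 values was not tested.

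The member with the lowest p in ChREBPβ-deficient mice was Pnpla8. Probe A_55_P2622076 read from 9.60 to 9.80 (median 9.72) against 9.32 to 9.61 in WT littermates (median 9.52). Nearly all deficient mice were above the WT range. The log2 difference was 0.22 (standard error 0.06, limma unadjusted p = 0.000611, adjusted p = 0.766), and an exact Mann-Whitney test gave p = 0.000311, which was 0.477 after adjustment. The brighter Pnpla8 probe, A_51_P201105, gave 0.08 (95% confidence interval -0.06 to 0.22), and the difference between the probes was not tested.

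The knockout effects in the lines were then compared directly. The effect was more negative in the total ChREBP line for Pnpla3, Pnpla5 and Pnpla7, as for 9.6% of all genes tested. The differences of the effects on the log2 scale were -3.79 for the leading Pnpla3 probe (limma adjusted p = 5.25e-05), -5.53 for that of Pnpla5 (limma adjusted p = 6.15e-07) and -1.16 for Pnpla7 (limma adjusted p = 3.89e-10). The second probes of Pnpla3 and Pnpla5, kept through groups in which they are high, read -2.16 and -2.23 and are a description only. The other 5 genes did not pass. Pnpla2 differed by 0.28 (95% confidence interval -0.04 to 0.60, limma adjusted p = 0.259) and G0s2 by -0.63 (95% confidence interval -1.30 to 0.04, limma adjusted p = 0.211). G0s2 passed at -0.83 (adjusted p = 0.0389) once ChREBPbeta_WT replicate 1, the mouse with its highest signal, was left out.

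Between the WT littermates of the lines none of the 8 genes was called by the same test, whereas 21.2% of all genes tested were. Before adjustment 5 of the 13 probes had a limma p under 0.05, as did 11056 of all 36059 probes. The lowest adjusted p was 0.0691, for the brightest Abhd5 probe, which was 0.20 higher on the log2 scale in WT littermates of the total ChREBP line. One member gene passed in turn without ChREBPbeta_WT replicate 2 (Pnpla7), ChREBPbeta_WT replicate 5 (Pnpla2), ChREBPtotal_WT replicate 3 (Abhd5) and the 5 arrays with raised marker sums (Abhd5).

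Among mice of the same genotype, Pnpla3 and Pnpla5 varied together. From the lowest to the highest mouse of a group, Pnpla5 spanned 24.3-fold in WT littermates of the total ChREBP line, 7.47-fold in WT littermates of the ChREBPβ line, 4.22-fold in ChREBPβ-deficient mice and 1.31-fold in total ChREBP-KO mice. For Pnpla3 the spans were 12.2-fold, 8.05-fold, 4.76-fold and 1.84-fold. ChREBPtotal_WT replicate 5 was the lowest of its group for both genes, at 6.77 for Pnpla3 and 7.81 for Pnpla5, and ChREBPbeta_WT replicate 5 and ChREBPbeta_KO replicate 8 were the highest of theirs. After centering each group on its mean, the leading probes correlated over 31 mice with r = 0.93 and rho = 0.86 (permutation within groups, p = 1e-05 for both, the smallest that 100000 permutations can give, 6e-05 after adjustment over 6 pairs). Without the 2 mice farthest from the median of Pnpla3, r was 0.90, and within scan days it was 0.89 and 0.88. By group, r was 0.99 in ChREBPβ WT littermates, 0.86 in ChREBPβ-deficient mice, 0.95 in total ChREBP WT littermates and 0.17 in total ChREBP-KO mice, where both probes were near background.

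Pnpla2 ran the other way. Its correlation with Pnpla3 was r = -0.56 and rho = -0.55 over the 31 mice (permutation p = 0.00263 and 0.00402, adjusted p = 0.00394 and 0.0121). Without the 2 farthest mice r was -0.50, and within scan days it was -0.49 and -0.69. ChREBPbeta_WT replicate 5 and ChREBPbeta_KO replicate 8, the highest of their groups for Pnpla3, were the lowest of their groups for Pnpla2, at 11.74 and 11.76. By group, r was -0.64 and -0.77 in the WT and deficient mice of the ChREBPβ line, and -0.46 and -0.10 in the WT and knockout mice of the total ChREBP line. The correlations of Pnpla2 with its cofactors did not pass the test. With G0s2, r was -0.03 and rho was -0.04 (permutation p = 0.917 and 0.833), and the values within scan days were -0.47 and 0.48. With Abhd5, r was -0.26 and rho was -0.29 (permutation p = 0.150 and 0.105, adjusted p = 0.180 and 0.126), -0.19 without the 2 farthest mice, and -0.23 and -0.07 within scan days. By group, r with Abhd5 was -0.61 and -0.54 in the WT and deficient mice of the ChREBPβ line and 0.12 and 0.22 in the WT and knockout mice of the total ChREBP line, and the difference between lines was not tested. The corresponding values with G0s2 were -0.10, 0.29, -0.02 and -0.15.

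**Figure D3:**
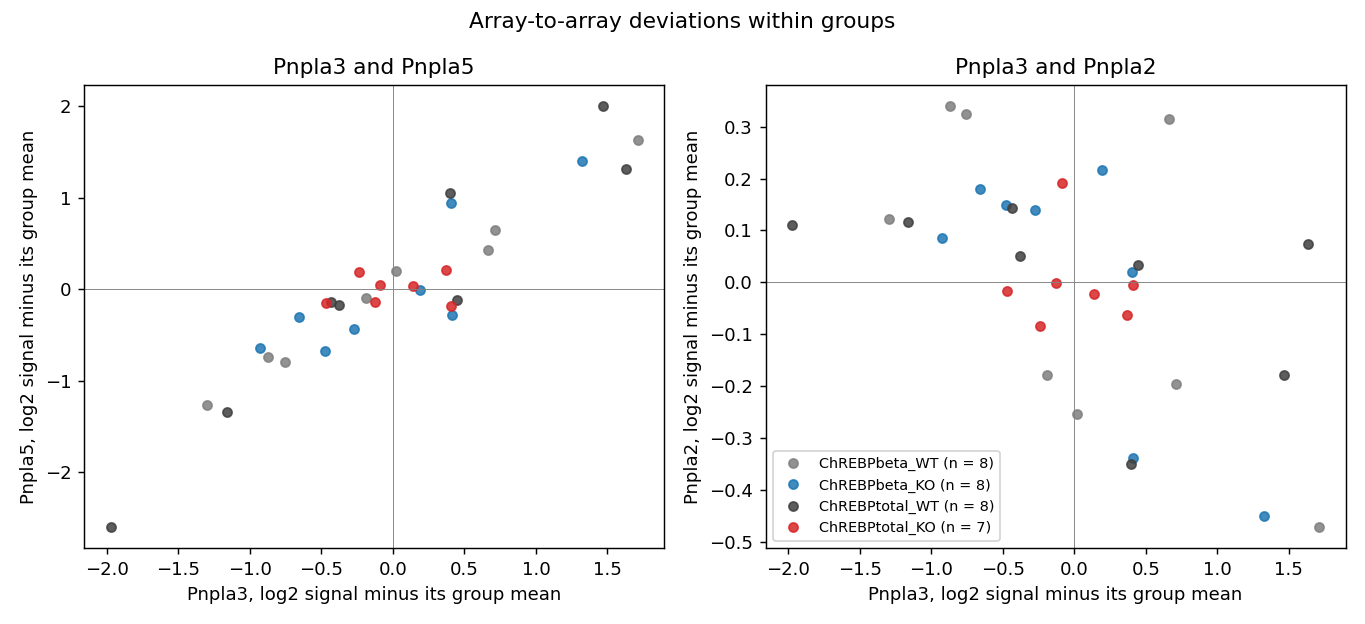
Deviation of each mouse from the mean of its group on the log2 scale, for Pnpla5 (left) and Pnpla2 (right) against Pnpla3, colored by group. Points of the left panel follow a rising line (r = 0.93 over 31 mice) and those of the right panel fall with wide scatter (r = -0.56).

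Fasn, which encodes fatty acid synthase, was set beside the 2 lipogenic lipases in the same way. It correlated with Pnpla5 at r = 0.61 and rho = 0.50 (permutation p = 0.00036 and 0.00725, adjusted p = 0.00108 and 0.0145) and with Pnpla3 at r = 0.57 and rho = 0.47 (permutation p = 0.00147 and 0.0136, adjusted p = 0.00294 and 0.0204). Without the 2 mice farthest from the median, r was 0.55 for Pnpla5 and 0.42 for Pnpla3, the latter with an adjusted p of 0.0631, so that this pair no longer passed the test without ChREBPtotal_WT replicate 5 and ChREBPbeta_WT replicate 5. By group, r of Pnpla3 with Fasn was 0.41 and 0.48 in the WT and deficient mice of the ChREBPβ line and 0.83 and 0.74 in the WT and knockout mice of the total ChREBP line. The corresponding values of Pnpla5 with Fasn were 0.46, 0.67, 0.90 and 0.10. In total ChREBP-KO mice the probes of both lipases were near background. Within scan days r was 0.58 and 0.55 for Pnpla5 and 0.47 and 0.50 for Pnpla3.

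The genes whose group-centered signals were most like those of the members, over all probes tested, are given as a description. For Pnpla3 they were Pnpla5 (probe A_51_P334804, r = 0.93), Slc44a1, a choline transporter (r = 0.81), and Acss2, a cytosolic acetyl-CoA synthetase (r = 0.81). For Pnpla5 they were Pnpla3 (probe A_55_P2025514, r = 0.95), Eva1c (r = 0.82) and Acly, the ATP citrate lyase (r = 0.80). The matching Pnpla3 and Pnpla5 probes are the second probes, kept through groups in which they are high. For Pnpla2 they were AW549877 (r = 0.88), the caspase gene Casp6 (r = 0.87) and Slc8b1 (r = 0.87), and for G0s2 Ccdc116 (r = 0.76), Gm40923 (r = 0.71) and Usp16 (r = 0.67). Each r is over 31 arrays, which share their normalization.

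The surrounding genes were read from lists of related genes in the total ChREBP comparison. There, 17.1% of all genes tested were called lower and 17.3% higher, and no list was tested against these shares. In ChREBPβ-deficient mice no gene of any list below was called. A call in the total ChREBP line alone is not a test of a difference between lines. Of 13 other neutral lipid and monoglyceride hydrolases, 5 were called higher and 2 lower, with a median log2 difference of 0.20 over 1 probe per gene, against 0.01 over all genes tested. Ddhd2, a triglyceride and phospholipid hydrolase, fell by 2.25 on the log2 scale (limma adjusted p = 1.07e-11), and Mgll, the monoglyceride lipase, fell by 0.47 (limma adjusted p = 0.00118). Abhd6, another monoglyceride lipase, rose by 0.58, and the carboxylesterases Ces1d and Ces1g rose by 0.62 each. Pnpla1, a skin acylceramide enzyme of the patatin-like family, rose by 0.46, and 1 dimmer probe of the phospholipase gene Pla2g6 rose by 0.35. Ces1d and Ces1g belong to a cluster of similar genes, and cross-hybridization of their probes was not tested. In the difference of the knockout effects between lines, Ddhd2, Mgll, Abhd6 and Pnpla1 were called, whereas Ces1d, Ces1g and Pla2g6 were not.

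Of 15 lipid droplet coat and assembly genes, 4 were called lower and 2 higher, with a median of -0.08. The perilipins Plin2, Plin3 and Plin5, which coat droplets and of which PLIN5 binds PNPLA2 and ABHD5, fell by 0.60, 0.29 and 0.59, and Bscl2, which encodes the droplet assembly factor seipin, fell by 0.27. Fitm1, which encodes a droplet formation protein, and Hsd17b11, which encodes a droplet-bound dehydrogenase, rose by 1.16 and 0.57. Only Plin2 and Plin5 of the droplet list were called in the difference of the knockout effects between lines. The 13 genes tested of the glycerophosphocholine and lysophospholipid list, the setting of PNPLA6 and PNPLA7, had a median of -0.03. Lpcat3, a lysophosphatidylcholine acyltransferase, fell by 0.47, Lypla2 by 0.17 and Pla2g12b by 0.21, whereas Lypla1 rose by 0.19. Of these, Lpcat3 alone was called in the difference between lines. The count of genes called lower in this list was 1 instead of 3 without ChREBPtotal_KO replicate 4 or without the 5 arrays with raised marker sums. The count called higher was 3 instead of 1 after normexp correction. It was 2 with the processed signal, without the 5 arrays, and without ChREBPtotal_KO replicate 5, 6, 7 or 8 or ChREBPtotal_WT replicate 5 or 7.

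All 9 genes of the fatty acid synthesis reference list fell, with log2 differences of the brightest probe from -4.63 for Thrsp to -0.91 for Srebf1 and a median of -3.18, and Fasn fell by 3.16 (limma adjusted p = 2.05e-13). All 9 were also called in the difference of the knockout effects between lines. Of 10 genes of the PPARα fasting reference list 7 were called higher, such as Acot1 at 1.43 and Ehhadh at 1.14, with a median of 0.78 for the list. Acot1 and Ehhadh were also called in that difference, whereas not all of the 7 were. Of 7 genes tested among regulators of Pnpla2 transcription and turnover, 3 rose and none fell, with a median of 0.35. These were Ppara by 0.69, Pparg by 0.68 and Snai1, which encodes a repressor of Pnpla2, by 0.41 (limma adjusted p = 0.000809, 0.00724 and 0.00922). Ppara and Pparg were also called lower in WT littermates of the total ChREBP line than in those of the ChREBPβ line. In the difference of the knockout effects between lines, only Ppara of this list was called.

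**Figure D4:**
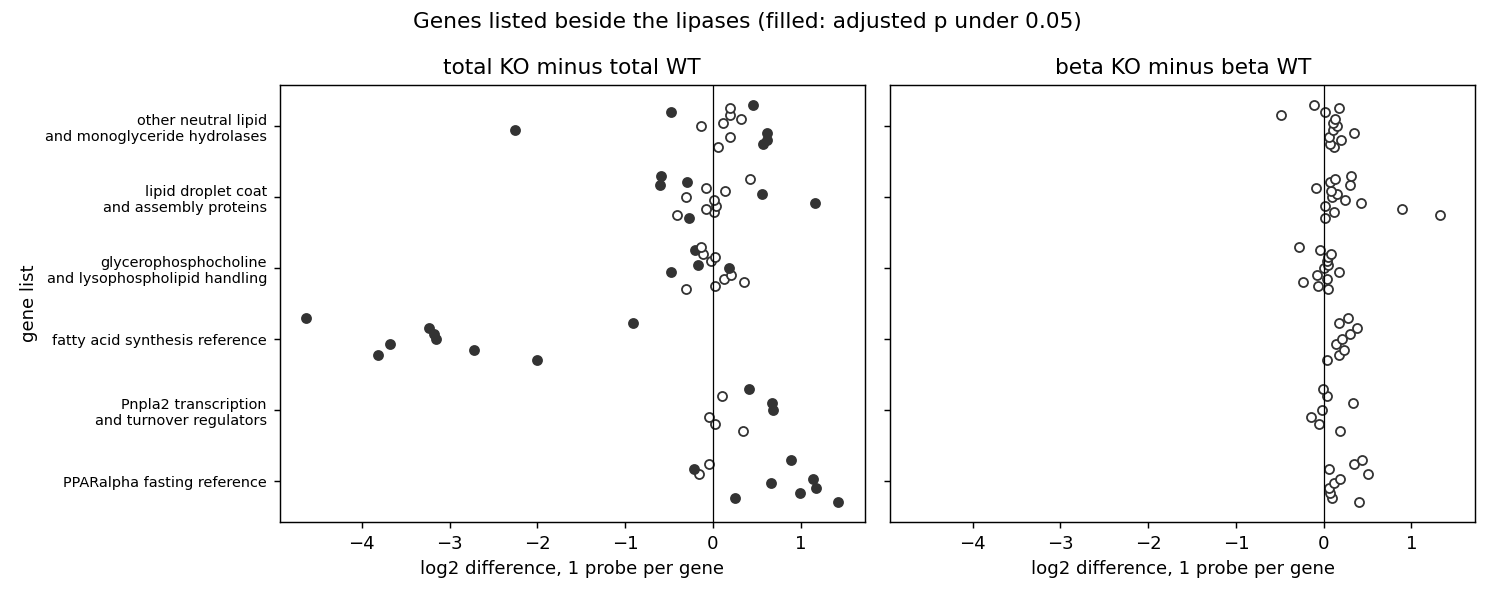
Log2 difference of knockout minus WT littermates for each gene (1 probe per gene) of the 6 lists, in the total ChREBP line (left) and the ChREBPβ line (right); filled points passed an adjusted p of 0.05. All 9 fatty acid synthesis genes lie left of 0 in the left panel, the other lists hold filled points on both sides or to the right, and the right panel has no filled point.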

How the data were processed

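Liver RNA of 31 mice was hybridized to 1-color Agilent SurePrint G3 Mouse GE v2 arrays. What the authors deposited for each array is the scanner output (Feature Extraction 10.10.1.1), which holds median, mean, local background and processed intensity per spot and other columns of flags (found, positive, well above background, saturated, outlier), not normalized between arrays. A second deposited file gives log2 values for 36057 probes, made by the authors from filtered, quantile-normalized median intensities; it served as an alternative, and member probes differed from it by at most 0.0757 on the log2 scale. For the present values, spots that passed the weights of the Methods on 26 arrays, or on 6 of 1 group, had their median intensities quantile normalized on the log2 scale, with no background subtracted, and were reduced to the median per probe name. Probes carry the array design's gene names, and of several probes the one with the highest mean leads.

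All 4 groups entered 1 linear model in R 4.3.3 with limma 3.58.1, with Benjamini-Hochberg adjustment over 36059 probes at 0.05. Percentages of genes called are shares of the 23968 gene names tested, and a gene counted as called with at least 1 called probe. Correlations used signals centered on group means and 100000 permutations within groups. The linear model was tested on simulated data with known shifts in the total ChREBP-KO group, and the other steps were not. The Methods name no test for probes; exact Mann-Whitney tests, the kind named in figure legends, were an alternative. The members, the lists and the named genes (members, called list genes, and the 3 genes most like Pnpla3, Pnpla5, Pnpla2 and G0s2) were chosen with earlier results of these data known. Promoters come from RefSeq tables of GRCm38.p6, with windows for 8 of 8 members. The number of arrays limits precision. The result of 1 listed gene is not reported here.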

Additional observations from a re-analysis of the deposited data

Results flagged for a closer look

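Among 52 combinations of 13 probes and 4 groups, a Dixon outlier test flagged 2 mice as apart from the rest of their group. Chance alone flags about 1 in 20 groups, so 2 of 52 is not more than chance gives. Pnpla2 in total ChREBP-KO replicate 4 read 12.44 on the log2 scale, with the next highest knockout mouse at 12.25. Abhd5 probe A_55_P2719519 in ChREBPβ WT replicate 6 read 9.37, with the next highest at 8.85.

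The knockout effect differed between the lines by a test of the difference itself for 5 probes. The log2 effect in the total ChREBP line minus that in the ChREBPβ line was -5.53 for Pnpla5 probe A_66_P122294 and -2.23 for A_51_P334804, -3.79 for Pnpla3 probe A_51_P389265 and -2.16 for A_55_P2025514, and -1.16 for Pnpla7. Probes A_51_P334804 and A_55_P2025514 were kept through groups in which they are high, so their values are a description only.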

How the results depend on the processing

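Pnpla3, Pnpla5 and Pnpla7 remained called lower in total ChREBP-KO mice in every alternative that tested them, leaving out each mouse included. The count of member genes called there was 3, from 2 to 4 over the alternatives. A filter requiring detection on all arrays removed Pnpla3 and Pnpla5 from the test, which left 1 member gene (Pnpla7) with different knockout effects. One member gene was called in ChREBPβ-deficient mice by the unadjusted exact Mann-Whitney test (Pnpla8, among 2241 probes) and 0 after adjustment. Between WT littermates the count ranged from 0 to 1 when single mice were left out and was 1 without the 5 arrays with raised marker sums, a choice made after seeing the data. The correlation of Pnpla3 with Fasn was 0.42 (adjusted p = 0.0631) and that of Pnpla2 with G0s2 turned to 0.044 without the 2 farthest mice.

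Differences near 0 changed sign, none of them called. For Pnpla2 in ChREBPβ-deficient mice the log2 difference was -0.034 with the processed signal, -0.014 with the median signal at the 75th percentile, -0.0016 after normexp correction and -0.018 without the 5 arrays. For Pnpla3 probe A_55_P2025514 it was -0.023 after normexp correction, -0.0065 with slide as a random block and -0.14 as a fixed block. With single mice left out, the ranges were -0.065 to 0.066 for Pnpla2, -0.15 to 0.17 and -0.30 to 0.14 for the Pnpla3 probes and -0.41 to 0.019 for Pnpla5 in ChREBPβ-deficient mice, and -0.012 to 0.094 for Pnpla6 in total ChREBP-KO mice. The cause of these changes was not tested. Of 188 other recomputed differences in total ChREBP-KO mice, 180 kept direction and side of the threshold, and 8 passed it. Among the lists, the hydrolases called lower numbered 1 with slide as a fixed block and the droplet genes called higher 1 by the adjusted Mann-Whitney test.

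No label pairs the mice by replicate number. Of 45 same-number pairs, 14 correlated above 0.1 (median 0.02, highest 0.53), and the median of 315 other pairs was -0.02. With their own number 11 of 31 arrays correlated best. Whether same-numbered arrays deviate together was not tested. With the replicate block the count was 3, with log2 differences of -3.94 for Pnpla3, -5.76 for Pnpla5, -1.08 for Pnpla7 and 0.29 for Pnpla2. Signal near background limits the size of the Pnpla3 and Pnpla5 decreases.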
